A study of Mus musculus with 15 samples.

Results

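The members described here are 9 mature microRNAs (miRNAs, the short RNAs that guide Argonaute proteins to messenger RNAs). Of these, 6 belong to the miR-200 family, namely mmu-miR-200a-3p, mmu-miR-200a-5p, mmu-miR-200b-3p, mmu-miR-200c-3p, mmu-miR-141-3p and mmu-miR-429-3p. The other 3, mmu-miR-183-5p, mmu-miR-96-5p and mmu-miR-182-5p, form the miR-183 cluster. The prefix mmu, for mouse, is left out below. They were taken as a list of names, with no threshold on a value, and make up 9 of the 683 miRNA names in the count tables. All 9 passed the filter on low counts, which left 652 miRNAs to test. The suffixes 5p and 3p name the arm of the hairpin precursor from which a mature miRNA is cut.

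Small RNA was sequenced from wild-type mice 14 days after surgery, in 3 groups of 5 libraries, with the question which miRNAs change with intracerebral haemorrhage (ICH) and with Buyang Huanwu decoction (BYHWD), a traditional Chinese herbal formula. The sham group and the ICH group received distilled water by gavage each day, and the BYHWD group consisted of mice with ICH that received the decoction at 6.19 g/kg each day for the 14 days. All mice were perfused with saline and the basal ganglia on the operated side were taken. The labels name brain as the tissue, while the extraction text says that RNA came from an exosome pellet. Strain, sex, age and the method of haemorrhage are not given in the sources used here. Each library is taken as 1 mouse, which the labels imply but do not state, so the p-values measure the spread between these libraries.

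The miR-200 family is best known for holding epithelial cells in their epithelial state by repressing the transcription factors Zeb1 and Zeb2, and in the rodent brain it is abundant in the olfactory system. The miR-183 cluster is known from sensory cells: all of its miRNAs are abundant in the retina and in the hair cells of the inner ear, and mutations in the seed of miR-96 cause hearing loss in mice and humans. A miRNA recognises its targets mainly through its seed, so members with the same seed are expected to share many targets.

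The mature sequences are shown because the seeds sort the members into groups that cut across the genomic clusters. They are RefSeq sequences of the GRCm38.p6 assembly, written 5′ to 3′, with the seed (bases 2 to 8) in capitals. All 9 members were found there, and their lengths were 22 to 25 nt.
miR-200b-3p: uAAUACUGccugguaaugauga
miR-200c-3p: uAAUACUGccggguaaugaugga
miR-429-3p: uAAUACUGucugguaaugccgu
miR-200a-3p: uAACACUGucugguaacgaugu
miR-141-3p: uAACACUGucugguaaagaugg
miR-200a-5p: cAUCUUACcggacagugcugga
miR-183-5p: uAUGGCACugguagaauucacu
miR-96-5p: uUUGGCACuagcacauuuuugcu
miR-182-5p: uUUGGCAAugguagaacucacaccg

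The seed AAUACUG was shared by miR-200b-3p, miR-200c-3p and miR-429-3p, and the seed AACACUG by miR-200a-3p and miR-141-3p. Counted from the 5′ end of the mature miRNA, the seed of miR-200a-3p and that of miR-141-3p each differ from that of miR-200b-3p by the substitution U4C. Outside the seed, miR-200c-3p differs from miR-200b-3p by U11G and A22G over their shared length, and miR-141-3p differs from miR-200a-3p by C17A and U22G. In the miR-183 cluster each member has its own seed over bases 2 to 8: that of miR-182-5p differs from that of miR-96-5p by C8A, and that of miR-183-5p differs from that of miR-96-5p by U2A. Over bases 2 to 7, miR-96-5p and miR-182-5p both have UUGGCA. No miRNA in the tables outside the members carries any of these seeds of bases 2 to 8.

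The members come from 3 genomic clusters on the minus strand in GRCm38. On chromosome 4, Mir200b (chr4:156055681-156055750), Mir200a (chr4:156054896-156054985) and Mir429 (chr4:156053905-156053987) lie within 1846 bp, in introns of the protein-coding gene Ttll10 and within the non-coding gene Gm13648, where Mir429 overlaps an exon. On chromosome 6, Mir200c (chr6:124718322-124718390) and Mir141 (chr6:124717914-124717985) lie within 477 bp in an intron of the antisense gene Gm15884, and Mir141 also overlaps an exon of the unclassified gene Gm29008. Elsewhere on chromosome 6, Mir183 (chr6:30169668-30169737), Mir96 (chr6:30169446-30169551) and Mir182 (chr6:30165918-30165992) lie within 3820 bp, with no other annotated gene overlapping them. The first is called the miR-200b cluster below, the second the miR-200c cluster and the last the miR-183 cluster. The Mir200a hairpin is the one from which both arms are members, and it is shown with the arms miR-200a-5p and miR-200a-3p in capitals.
Mir200a: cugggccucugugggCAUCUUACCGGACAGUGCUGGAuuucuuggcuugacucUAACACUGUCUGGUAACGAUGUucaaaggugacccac

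The deposited tables held 4684611 to 9860236 miRNA counts per library, with reads for 674 to 682 of the 683 names. Each count was assigned to the name 1 row above it, because the first count in all 15 tables was the library's own number. After this move, 90 of 103 pairs of rows with the same name agreed within 0.1 log2 units, against 26 as printed, and the median Spearman correlation among the members of the miR-183 cluster was 0.80, against -0.23 as printed. Summed over miR-9-5p, miR-124-3p and miR-128-3p, the listed neuron markers took 90969 to 145406 CPM (read counts scaled to a library of 1000000) over the 15 libraries. Most of this was miR-9-5p, at 73907 to 115122 CPM, while miR-124-3p was at 3670 to 5928 CPM. Sham replicates 4 and 5 stood apart from the other libraries: on the first principal component of all tested miRNAs (26.8% of the variance) they lay at -14.8 and -12.1, and the other 13 libraries lay between -1.88 and 6.37. Their TMM scaling factors, which correct for differences in RNA composition, were 0.667 and 0.721, and those of the other 13 libraries were 0.954 to 1.19. Without TMM factors, levels in these libraries are therefore lower relative to the rest. Results that rest on these libraries are given with and without them, and with total count scaling where it changes them. In whole tissue, fewer cells of a type and less RNA per cell cannot be told apart.

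Levels are given as CPM of the library size after TMM scaling, and errors are the SD over 5 libraries. A read covers a whole mature miRNA, so CPM needs no correction for length, but differences between sequences in ligation and amplification were not corrected. The order of mean levels over the 15 libraries was miR-183-5p, miR-200a-3p, miR-200b-3p and miR-182-5p, at ranks 244 to 262 of the 683 miRNAs, then miR-429-3p, miR-96-5p and miR-200c-3p at ranks 415 to 419, and last miR-200a-5p and miR-141-3p at ranks 536 and 554. Neighbours within each of these 3 levels differed by less than their own spread over libraries. The lowest members had few reads, with 6 to 52 per library for miR-200a-5p and 7 to 58 for miR-141-3p. For miR-141-3p in sham replicate 1, the count of 7 gave 0.976 CPM with an exact 95% Poisson interval of 0.392 to 2.01, which covers counting error only.

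In the miR-200b cluster, the mean level of miR-200b-3p was 104 ± 109 CPM in sham, 58.3 ± 7.51 in ICH and 66.3 ± 37.6 in BYHWD (SD, n = 5 each). Sham replicates 1 to 5 had 28.7, 57.4, 27.7, 286 and 122 CPM of miR-200b-3p, ICH replicates 66.3, 55.4, 65.9, 54.2 and 49.5, and BYHWD replicates 79.0, 28.0, 52.1, 125 and 47.2. The 5 ICH libraries lay close together and inside the range of both other groups, and sham replicate 4 stood far above every other library.

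The level of miR-200a-3p, which is cut from the neighbouring hairpin and has the other seed of the family, was 60.8 ± 28.8 CPM in sham, 76.9 ± 23.2 in ICH and 96.4 ± 70.4 in BYHWD (SD, n = 5 each). Sham replicates had 34.6, 64.2, 29.8, 97.9 and 77.5 CPM of miR-200a-3p, ICH replicates 116, 81.5, 62.0, 65.2 and 60.2, and BYHWD replicates 103, 36.8, 54.0, 214.3 and 73.6. The groups overlapped, the lowest 2 libraries were sham replicates 3 and 1, and the highest was BYHWD replicate 4. The opposite arm, miR-200a-5p, ran from 0.836 to 5.82 CPM in sham, from 1.12 to 3.50 in ICH and from 1.24 to 6.47 in BYHWD, and its highest library was also BYHWD replicate 4. The third miRNA of the cluster, miR-429-3p, ran from 4.04 to 15.3 CPM in sham, from 4.33 to 18.9 in ICH and from 5.69 to 30.4 in BYHWD. Its 3 groups overlapped too, with BYHWD replicate 4 again highest.

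In the miR-200c cluster, miR-200c-3p was at 7.97 ± 6.39 CPM in sham, 13.3 ± 9.44 in ICH and 8.92 ± 7.77 in BYHWD (SD, n = 5 each). Sham replicates had 2.79, 4.63, 3.60, 17.8 and 11.0 CPM of miR-200c-3p, ICH replicates 9.34, 10.4, 12.3, 29.5 and 4.95, and BYHWD replicates 8.32, 2.90, 4.20, 22.3 and 6.89. Each group held 1 library well above its others, sham replicate 4, ICH replicate 4 and BYHWD replicate 4, and the groups overlapped.

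Its partner miR-141-3p was at 1.61 ± 0.42 CPM in sham, 3.27 ± 1.39 in ICH and 2.85 ± 2.50 in BYHWD (SD, n = 5 each). Sham replicates had 0.976, 1.75, 1.60, 1.55 and 2.15 CPM of miR-141-3p, ICH replicates 3.35, 3.76, 1.73, 5.29 and 2.24, and BYHWD replicates 2.58, 1.76, 1.26, 7.22 and 1.42. ICH replicate 3 lay within the sham range and the other ICH libraries above it, while BYHWD replicate 4, with 58 reads and a 95% Poisson interval of 5.48 to 9.34 CPM, was highest of all.

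In the miR-183 cluster, miR-183-5p was at 116 ± 116 CPM in sham, 63.2 ± 27.1 in ICH and 81.1 ± 51.2 in BYHWD (SD, n = 5 each). Sham replicates had 34.7, 46.4, 42.4, 306 and 148 CPM of miR-183-5p, ICH replicates 100.5, 63.3, 60.9, 24.0 and 67.2, and BYHWD replicates 116, 27.4, 52.9, 152 and 57.2. Sham replicate 4 was highest and ICH replicate 4 lowest, a 12.7-fold range that was the widest among the 9 members.

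The level of miR-182-5p was 78.9 ± 56.6 CPM in sham, 64.5 ± 25.4 in ICH and 75.6 ± 42.4 in BYHWD (SD, n = 5 each). Sham replicates had 37.2, 57.3, 36.0, 172 and 92.3 CPM of miR-182-5p, ICH replicates 99.2, 56.4, 78.2, 31.9 and 56.6, and BYHWD replicates 95.5, 32.5, 56.6, 140 and 53.7. Its order of libraries was close to that of miR-183-5p, with sham replicate 4 at the top and ICH replicate 4 at the bottom; with total count scaling BYHWD replicate 4 was at the top. The remaining miRNA of the cluster, miR-96-5p, ran from 5.20 to 16.9 CPM in sham, from 6.57 to 15.1 in ICH and from 4.66 to 18.3 in BYHWD. Its 3.93-fold range over the 15 libraries was the narrowest among the members.

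**Figure D1:**
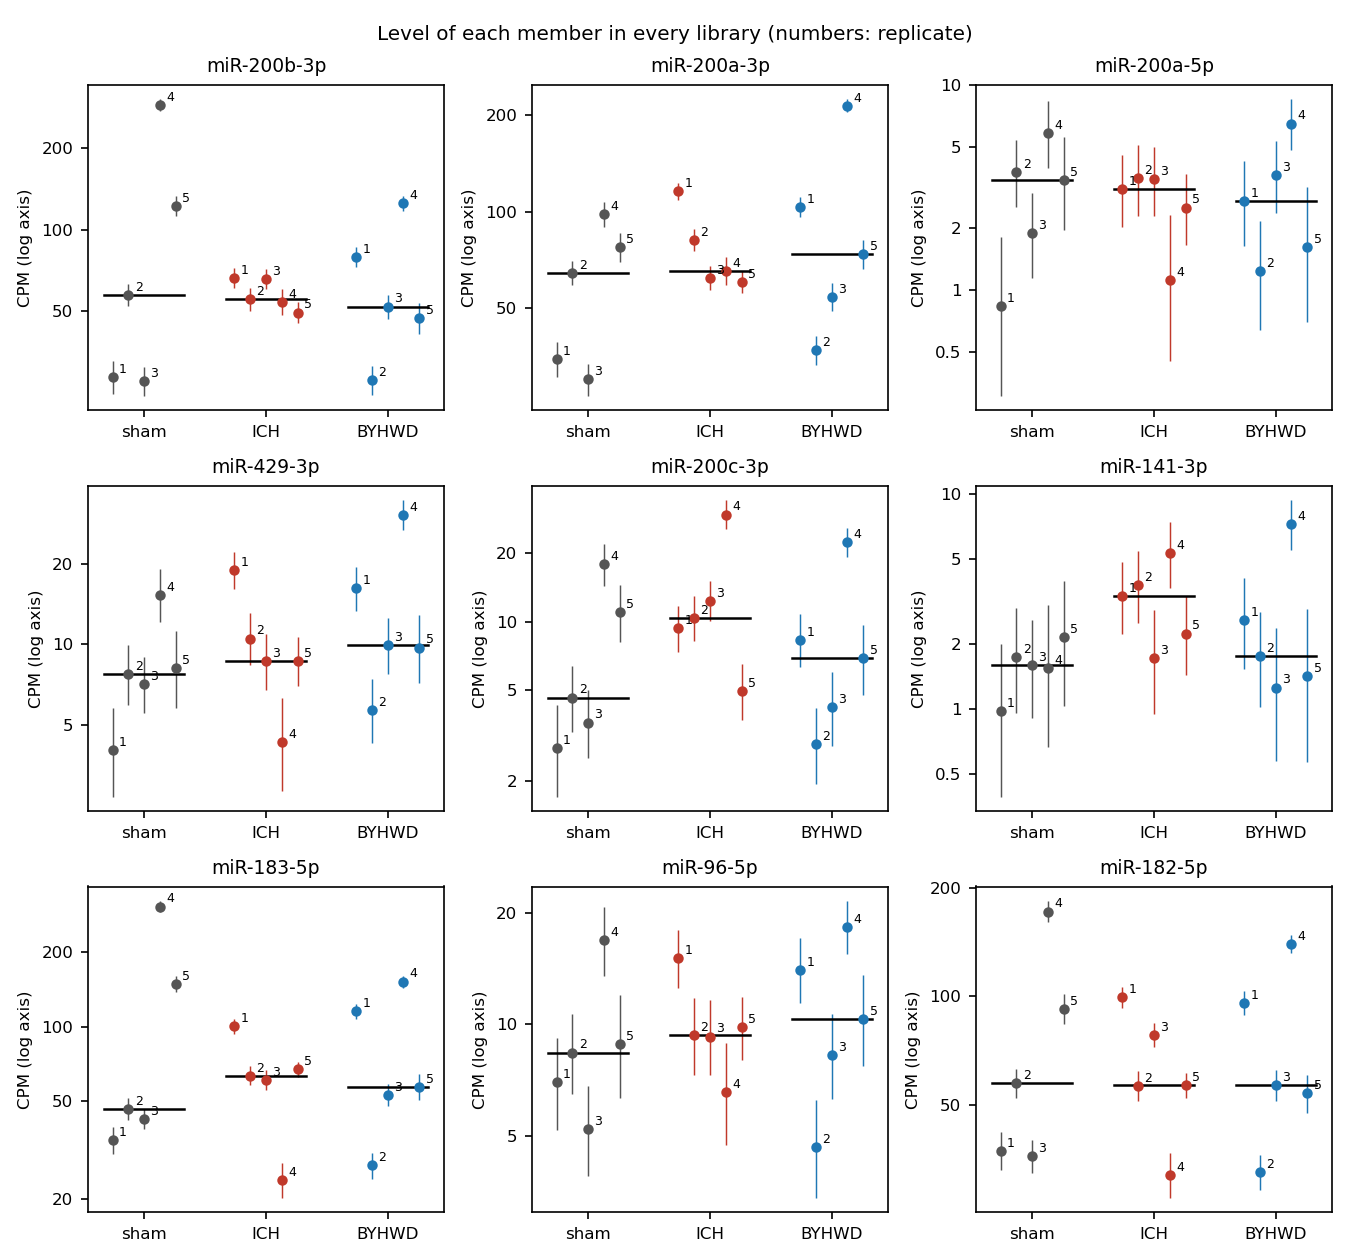
Level of each of the 9 members in every library, in CPM of the TMM-scaled library size on a log axis. Each miRNA has 1 panel, with 1 point per library and the group median as a line. The 3 groups overlap in every panel, and the highest point is BYHWD replicate 4 for 5 members, sham replicate 4 for miR-200b-3p, miR-183-5p and miR-182-5p (BYHWD replicate 4 for the last with total count scaling), and ICH replicate 4 for miR-200c-3p, at 29.5 CPM.

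For ICH against sham, which asks what haemorrhage left in the basal ganglia at day 14, no member passed the test. The count of members called was 0 of 9 at an adjusted p under 0.05 (edgeR quasi-likelihood test, Benjamini-Hochberg adjustment over 652 miRNAs), and 0.767% of all tested miRNAs were called. At an unadjusted p under 0.05 the count was 1 of 9, against 21% of all tested miRNAs. DESeq2 and limma-voom also called 0 of 9, with 1 and 0 members at an unadjusted p under 0.05. The shares above are those of edgeR. Of all miRNAs, edgeR called 5 and DESeq2 48, and the alternatives ranged from 4 to 48. The groups overlapped for every member, whereas 3.99% of all tested miRNAs had groups that did not.

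The member with an unadjusted p under 0.05 was miR-141-3p, which has the seed AACACUG. Its fitted log2 fold change was 1.02 (SE 0.46), with an unadjusted p of 0.042 and an adjusted p of 0.214 in edgeR. The estimate for its cluster partner miR-200c-3p was 0.77 (SE 0.62, edgeR adjusted p = 0.509), and it was 0.26 (SE 0.60, edgeR adjusted p = 0.857) without ICH replicate 4. For miR-141-3p the value without that library was 0.79 (SE 0.47, edgeR adjusted p = 0.389).

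Estimates below 0 were found for miR-183-5p at -0.86 (SE 0.60, edgeR adjusted p = 0.431), miR-200b-3p at -0.84 (SE 0.55, edgeR adjusted p = 0.408), miR-182-5p at -0.29 (SE 0.46) and miR-200a-5p at -0.14 (SE 0.48). The other 3 members, miR-200a-3p, miR-429-3p and miR-96-5p, had estimates of 0.14 to 0.34. In all, 5 of 9 members were above 0, with a median of 0.14, while 47.7% of all tested miRNAs were above 0 with a median of -0.02. The width of the intervals limits what the comparison can show: 2 SE around the estimate for miR-183-5p reached from -2.07 to 0.34, and around that for miR-96-5p, the narrowest, from -0.57 to 0.85.

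Without sham replicates 4 and 5, the estimates for miR-200b-3p, miR-183-5p, miR-182-5p and miR-200a-5p changed sign, to 0.61, 0.61, 0.56 and 0.34. All 9 members then lay above 0, with a median of 0.61 and none called in edgeR. In the same fit 46.1% of all tested miRNAs lay above 0, with a median of -0.03, and 1.06% were called. The value for miR-200c-3p became 1.82 (SE 0.71, edgeR adjusted p = 0.207), and that for miR-141-3p stayed near its value in all libraries, at 1.12 (SE 0.56, edgeR adjusted p = 0.313).

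For BYHWD against ICH, which asks what the decoction changed after haemorrhage, 0 of 9 members were called in edgeR, and 0% of all tested miRNAs were called. The count at an unadjusted p under 0.05 was also 0 of 9, against 4.75% of all tested miRNAs in edgeR. DESeq2 and limma-voom gave 0 members called and 0 at an unadjusted p under 0.05. Of all miRNAs, 0 were called under every alternative. The groups overlapped for every member, whereas 0.613% of all tested miRNAs had groups that did not. The largest estimates were -0.55 (SE 0.61, edgeR adjusted p = 0.956) for miR-200c-3p and 0.49 (SE 0.45, edgeR adjusted p = 0.942) for miR-429-3p. Of the 9 estimates 7 were above 0, with a median of 0.19, while 51.1% of all tested miRNAs were above 0 with a median of 0.00.

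The direction of these estimates rested on BYHWD replicate 4. Without it, 1 of 9 members was above 0 and the median was -0.18, while 52.3% of all tested miRNAs were above 0 with a median of 0.0083 and 0% were called. The value for miR-141-3p was then -0.86 (SE 0.33, edgeR unadjusted p = 0.02, adjusted p = 0.991), and that for miR-200c-3p was -1.26 (SE 0.59, edgeR unadjusted p = 0.0493, adjusted p = 0.991). Without ICH replicate 4 in place of it, the values for miR-200c-3p and miR-141-3p were -0.04 and 0.08.

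For BYHWD against sham, which sets the treated haemorrhage beside the operated control, 0 of 9 members were called in edgeR, and 2.3% of all tested miRNAs were called, 1.99% being higher in BYHWD. The count at an unadjusted p under 0.05 was 0 of 9, against 21.2% of all tested miRNAs in edgeR. DESeq2 and limma-voom gave 0 members called and 0 at an unadjusted p under 0.05. Of all miRNAs, edgeR called 15, and the alternatives ranged from 2 to 54. The groups overlapped for every member, whereas 3.83% of all tested miRNAs had groups that did not. This comparison shares the sham libraries with ICH against sham, so that the values of both are set side by side only. The log2 fold change of miR-141-3p was 0.87 (SE 0.47, edgeR adjusted p = 0.304), beside 1.02 for ICH against sham. That of miR-200b-3p was -0.65 (SE 0.55, edgeR adjusted p = 0.560), beside -0.84, and that of miR-183-5p was -0.51 (SE 0.60, edgeR adjusted p = 0.708), beside -0.86.

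In BYHWD against sham 6 of 9 members were above 0, with a median of 0.22, while 51.7% of all tested miRNAs were above 0 with a median of 0.02. Without sham replicates 4 and 5, 9 of 9 were above 0 with a median of 0.97 and none called in edgeR. In the same fit 49.1% of all tested miRNAs were above 0, with a median of -0.0044, and 1.06% were called. The values for miR-200b-3p, miR-183-5p and miR-182-5p then were 0.80, 0.97 and 0.80, and that for miR-200a-3p was 1.17 (SE 0.51, edgeR unadjusted p = 0.0411, adjusted p = 0.319). Without BYHWD replicate 4, by contrast, 4 of 9 members were above 0, with a median of -0.40, while 51.4% of all tested miRNAs were above 0 with a median of 0.01 and 1.38% were called.

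The comparisons against sham also moved with the scaling. With total counts in place of TMM, an alternative chosen after the data were seen, 60.4% of all tested miRNAs lay above 0 in ICH against sham and 66.3% in BYHWD against sham, with medians of 0.07 and 0.15. Of the members 7 of 9 lay above 0 in each, with medians of 0.35 and 0.51. In each, edgeR called 0 members, against 1.38% and 2.91% of all tested miRNAs. At an unadjusted p under 0.05 in edgeR, the counts were 1 and 3 of 9. The share of all miRNAs at that threshold is not given here. The estimates for miR-200b-3p and miR-183-5p stayed below 0, at -0.44 and -0.45 in ICH against sham and at -0.23 and -0.09 in BYHWD against sham. That for miR-182-5p was above 0 in both, at 0.03 and 0.27.

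**Figure D2:**
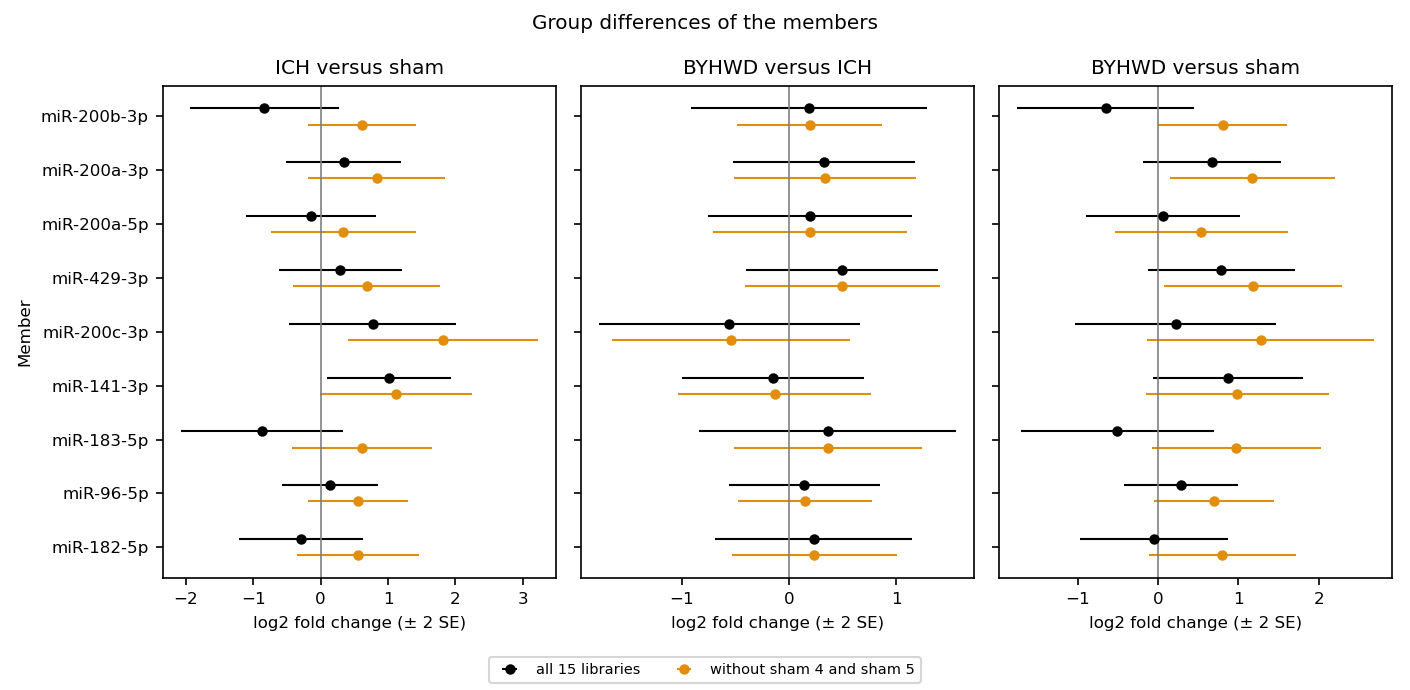
Fitted log2 fold change of each member in the 3 comparisons, with bars of 2 SE, for all 15 libraries and without sham replicates 4 and 5. The bars cross 0 for all members with all libraries except miR-141-3p in ICH against sham, at 1.02, and the values for miR-200b-3p and miR-183-5p against sham lie below 0 with sham replicates 4 and 5 and above 0 without them.

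In the fit of all 15 libraries, the members varied more between libraries of a group than most miRNAs did. The biological coefficient of variation that edgeR estimates from the spread between replicates was 0.377 for miR-96-5p, the lowest member, and 0.644 for miR-200c-3p, the highest. Its median over the 652 tested miRNAs was 0.213, and 89.6% to 98.8% of them had a lower value than a given member. These are descriptions across miRNAs, which are not independent.

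The same libraries were high or low for most members. BYHWD replicate 4 was among the highest 3 libraries for 9 of 9 members, and sham replicate 4 for 6 of 9, or 4 of 9 with total count scaling. At the other end, BYHWD replicate 2 was among the lowest 3 libraries for 8 of 9 members, sham replicate 1 for 7 and sham replicate 3 for 5. ICH replicate 4 was mixed: it had the highest level of miR-200c-3p and the second highest of miR-141-3p, yet it was among the lowest 3 libraries for 5 members, including all 3 of the miR-183 cluster.

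**Figure D3:**
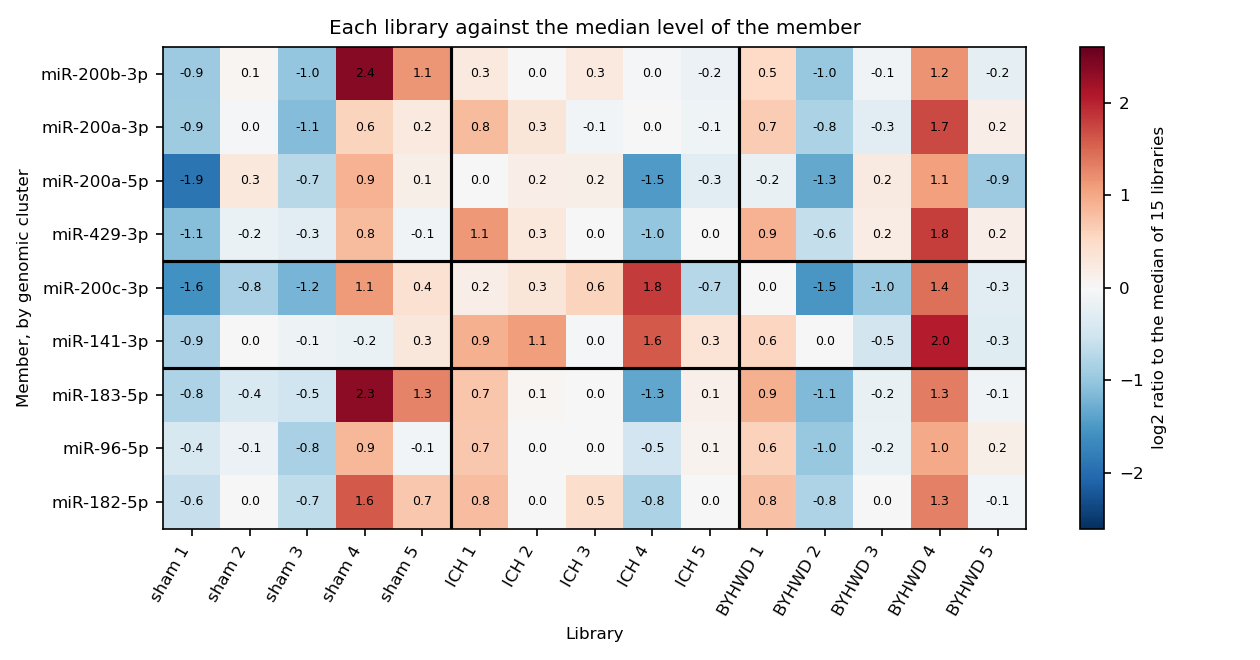
Deviation of each member in each library from that member's median over the 15 libraries, in log2 units, with members in rows and libraries in columns. BYHWD replicate 4 is above the median in all 9 rows, sham replicate 1 in none, and ICH replicate 4 is high for miR-200c-3p and miR-141-3p and low for the miR-183 cluster.

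Sham replicates 4 and 5 were not raised evenly over the members. Relative to the mean of sham replicates 1 to 3, sham replicate 4 had 7.54 times as much miR-200b-3p, 7.43 times as much miR-183-5p and 4.86 times as much miR-200c-3p. For miR-96-5p the fold in that library was 2.46, for miR-429-3p 2.43 and for miR-141-3p 1.08. In sham replicate 5 the folds for miR-183-5p, miR-200b-3p and miR-200c-3p were 3.61, 3.22 and 2.99, and those for miR-96-5p and miR-429-3p were 1.29 and 1.30. With total count scaling the folds in sham replicate 4 were 4.48 for miR-200b-3p, 4.42 for miR-183-5p and 2.90 for miR-200c-3p, and that for miR-141-3p was 0.643. In sham replicate 5 the folds for miR-96-5p and miR-429-3p were then 0.822 and 0.840, so that their direction depended on the scaling, while miR-183-5p and miR-200b-3p had 2.32 and 2.07. These folds describe libraries that stand apart and were not tested.

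Ratios between miRNAs of 1 cluster, which share a genomic locus, were taken in each library. They do not depend on the scaling. The ratio of miR-200b-3p to miR-200a-3p was 2.92 in sham replicate 4 and 1.58 in sham replicate 5, and 0.574 to 1.06 in the other 13 libraries. The ratio of miR-183-5p to miR-96-5p was 18.1 and 16.8 in these libraries, and 3.66 to 8.31 in the other 13. The ratio of miR-183-5p to miR-182-5p was 1.78 and 1.61, and 0.754 to 1.21 in the other 13. In each of these 3 ratios, of 6 taken within clusters, both sham libraries lay outside the range of all others. The ratio of miR-200c-3p to miR-141-3p was 11.5 in sham replicate 4, outside the range of 1.65 to 7.14, and 5.10 in sham replicate 5, inside it. Both libraries lay within the range for miR-200a-3p over miR-429-3p (6.39 and 9.47, others 4.20 to 15.1) and for miR-200a-3p over miR-200a-5p (16.8 and 22.5, others 14.8 to 58.1).

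**Figure D4:**
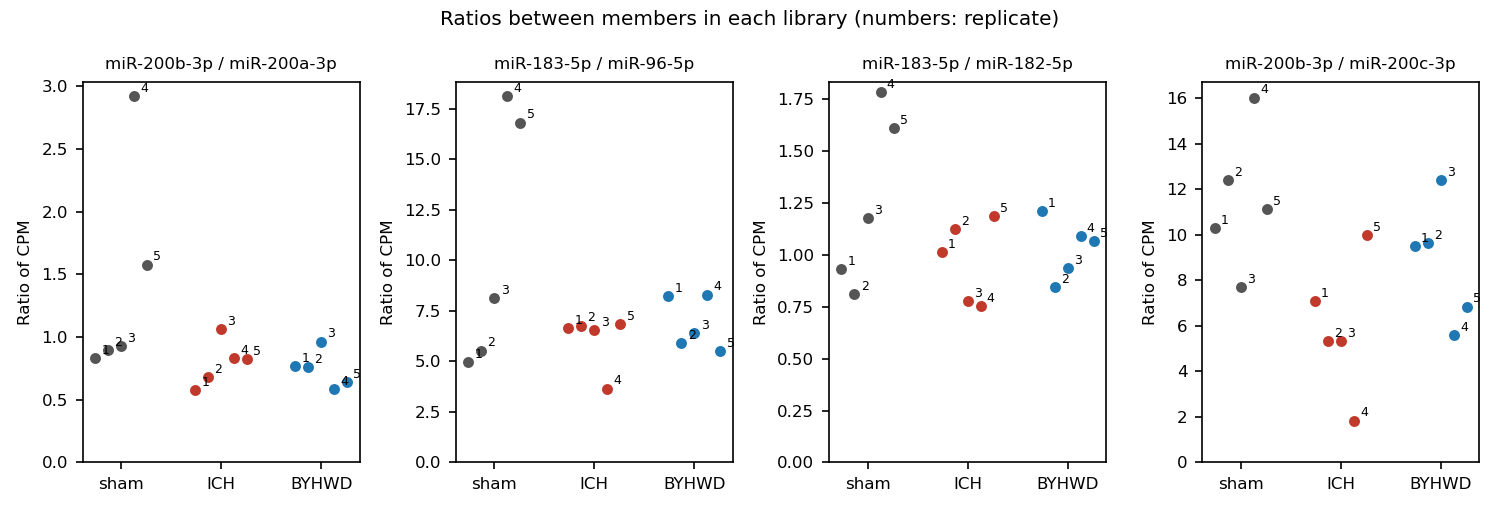
Ratios between members in each library on a linear axis, with 1 point per library. Sham replicates 4 and 5 lie above the other 13 libraries for miR-200b-3p over miR-200a-3p (2.92 and 1.58), miR-183-5p over miR-96-5p (18.1 and 16.8) and miR-183-5p over miR-182-5p (1.78 and 1.61).

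Summed by seed, the members with AAUACUG (miR-200b-3p, miR-200c-3p and miR-429-3p) took 121 ± 119 CPM in sham, 81.8 ± 12.3 in ICH and 89.6 ± 54.7 in BYHWD (SD, n = 5 each). Those with AACACUG (miR-200a-3p and miR-141-3p) took 62.4 ± 29.0 CPM in sham, 80.2 ± 23.5 in ICH and 99.2 ± 72.8 in BYHWD. The 2 seeds thus took similar CPM in most libraries: the ratio of the first to the second was 1.03 ± 0.18 (SD) over 13 libraries. It was 3.21 in sham replicate 4 and 1.78 in sham replicate 5. Because ligation and amplification differences between sequences were not corrected, the ratio compares reads and not amounts of RNA.

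The cluster sums showed which members moved together over libraries. The summed level of the miR-200b cluster was 66.5 to 405 CPM in sham (median 133), 121 to 204 in ICH (median 140.0) and 71.6 to 376 in BYHWD (median 132). That of the miR-183 cluster was 78.9 to 494 CPM in sham (median 112), 62.5 to 214.7 in ICH (median 134) and 64.6 to 310.2 in BYHWD (median 121). Although these clusters lie on different chromosomes, their log2 sums had a Pearson correlation of 0.92 and a Spearman correlation of 0.87 over the 15 libraries.

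The relation between these 2 clusters did not rest on the extreme libraries. Without BYHWD replicate 4 and sham replicate 4 the Pearson correlation was 0.85, without sham replicates 4 and 5 it was 0.88, for deviations from the group means it was 0.94, and with total count scaling it was 0.89. The points share library depth and scaling, and the coefficients are given as a description. Among single miRNAs, the Spearman correlation was 0.84 to 0.91 for the 3 pairs within the miR-183 cluster, 0.51 to 0.84 for the 6 pairs within the miR-200b cluster and 0.56 to 0.89 for the 12 pairs between these clusters.

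The miR-200c cluster, although it carries the same seeds as the miR-200b cluster, followed the others less closely. Its summed level was 3.76 to 19.4 CPM in sham (median 6.38), 7.19 to 34.8 in ICH (median 14.1) and 4.66 to 29.5 in BYHWD (median 8.31). The Pearson correlation of its log2 sum was 0.74 with the miR-200b cluster and 0.48 with the miR-183 cluster over 15 libraries. The latter was 0.85 without sham replicate 1 and ICH replicate 4, the libraries at the ends of its range. It was 0.41 without sham replicates 4 and 5, 0.59 for deviations from the group means and 0.35 with total count scaling, so that it depended on the libraries taken.

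**Figure D5:**
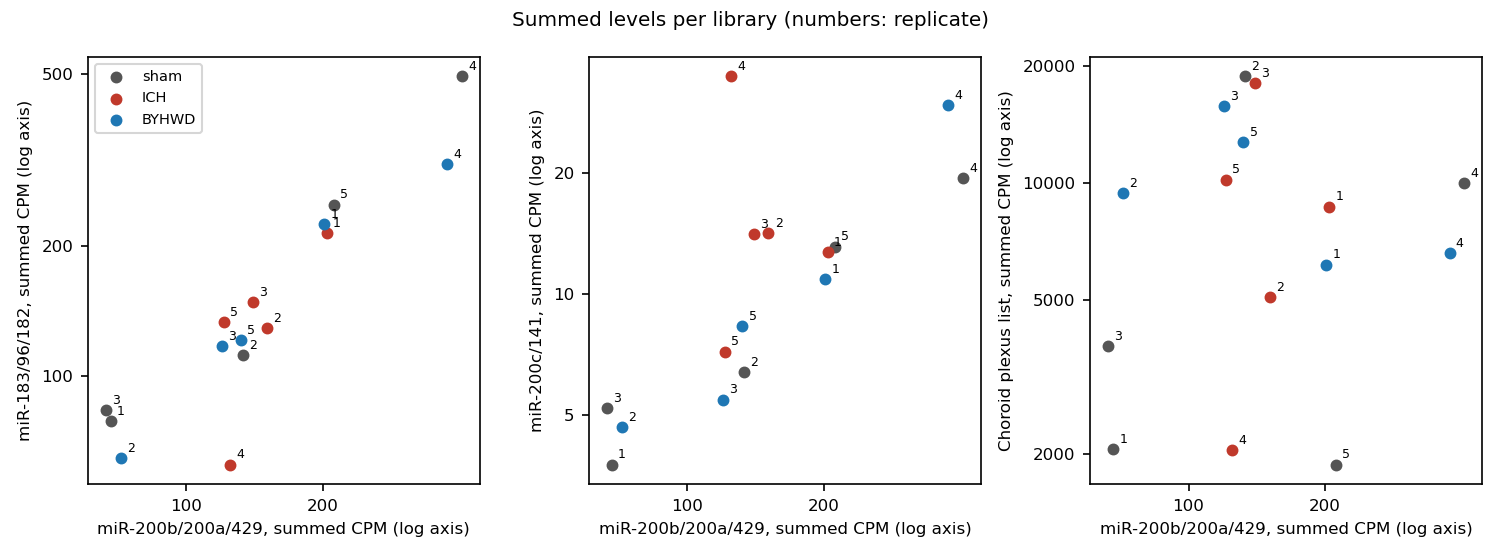
Summed level of the miR-183 cluster, the miR-200c cluster and the choroid plexus marker list (described below), each plotted against that of the miR-200b cluster. Values are CPM on log axes, with 1 point per library coloured by group. The sums of the miR-200b cluster and the miR-183 cluster lie along 1 line (Pearson correlation 0.92, n = 15). In the panel with the miR-200c cluster, ICH replicate 4 lies off the trend.

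Among 413 miRNAs outside the members with a mean of at least 10 CPM, let-7b-5p had the highest Spearman correlation with each of the 3 cluster sums over all 15 libraries. The values were 0.81 with the miR-200b cluster, 0.82 with the miR-200c cluster and 0.73 with the miR-183 cluster, and without sham replicates 4 and 5 they were 0.71, 0.81 and 0.59. Without these libraries, miR-152-3p at 0.65 and miR-125a-3p at 0.85 were closer to the miR-183 cluster than let-7b-5p was. Next came miR-26a-5p and miR-152-3p for the miR-200b cluster (0.77 and 0.71), miR-222-5p and let-7c-5p for the miR-200c cluster (0.78 and 0.74), and miR-152-3p and let-7c-5p for the miR-183 cluster (0.72 and 0.65). These miRNAs were picked as the highest of many, so that the coefficients are descriptions only.

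Marker miRNAs of epithelia in and near the basal ganglia were set beside the members. For the choroid plexus, the epithelium that makes cerebrospinal fluid, 6 of 7 listed markers were in the tables. They summed to 1876 to 18820.5 CPM in sham, 2046 to 18099 in ICH and 6156 to 15794 in BYHWD. For multiciliated cells, 5 of 6 listed markers were in the tables, with sums of 2828 to 12279 CPM in sham, 2197 to 12254 in ICH and 4622 to 10249 in BYHWD. Over the 15 libraries the Pearson correlation of the miR-200b cluster sum was 0.14 with the choroid plexus sum and 0.05 with the multiciliated sum. That of the miR-183 cluster was 0.16 and 0.13, and that of the miR-200c cluster was -0.18 and -0.33. None of the choroid plexus or multiciliated markers was called in any of the 3 comparisons in edgeR.

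Of the other epithelial miRNAs listed, miR-203-3p, a miRNA of the skin epidermis, and miR-205-5p, of stratified epithelia, were in the tables. The level of miR-203-3p was 820 CPM in sham replicate 4 and 554 in sham replicate 5, and 229 to 393 in the other 13 libraries. With total count scaling it was 547 in sham replicate 4, still the highest, and 399 in sham replicate 5, within the other libraries' range of 253 to 417. Its Pearson correlation, taken with miR-205-5p as a sum, was 0.59 with the miR-183 cluster sum over 15 libraries and 0.04 without sham replicates 4 and 5. The level of miR-205-5p was near 0, with 2 to 10 reads per library in 14 libraries and 25 reads, or 3.11 CPM, in BYHWD replicate 4. The red cell miRNA miR-451a was at 295 CPM in BYHWD replicate 4 and 271 in sham replicate 1, against 34.7 to 112 in the others. These libraries were at opposite ends for the members. BYHWD replicate 4 was also highest for the other listed red cell miRNAs, at 6.72 CPM of miR-144-3p and 112.4 of miR-486a-5p. Sham replicate 1 had 91.8 CPM of miR-486a-5p, but only 1.53 of miR-144-3p (11 reads), below the 3.00 of sham replicate 2. The part of other epithelia and of blood in the members' levels was not tested.

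The remaining marker lists give the setting of the members' results. In edgeR, the myeloid marker miR-142a-3p was called higher in ICH than in sham (log2 fold change 1.70, SE 0.29, adjusted p = 0.00395) and in BYHWD than in sham (1.57, SE 0.29, adjusted p = 0.00964), as 1 of 3 myeloid markers in each. The mesenchymal marker miR-199a-3p, 1 of 2 listed, was called higher in BYHWD than in sham (1.21, SE 0.25, adjusted p = 0.0117). No tested marker of the neuroendocrine, neuron, oligodendrocyte, erythroid or vascular lists was called in any of the 3 comparisons, nor was miR-203-3p, the 1 of 4 listed other epithelial miRNAs that was tested. None of the tested markers was called in BYHWD against ICH. The oligodendrocyte marker miR-219a-2-3p was at 23192 and 19415 CPM in sham replicates 4 and 5 and at 5756 to 9721 CPM in the other 13 libraries, and these libraries were also highest for it with total count scaling. The other 2 listed markers, miR-338-3p and miR-338-5p, were not raised there, at 301 and 412 CPM for miR-338-3p, the lowest of the 15 libraries, and at 622 and 764 CPM for miR-338-5p. The Pearson correlation of the oligodendrocyte sum was 0.50 with the miR-200b cluster sum and 0.56 with the miR-183 cluster sum over the 15 libraries, and 0.0077 and -0.069 without sham replicates 4 and 5. The Spearman correlation was 0.15 with both over the 15 libraries. For the erythroid sum the Pearson correlations were -0.0083 and -0.012. The part of oligodendrocyte RNA in the members' levels was not tested.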

How the data were processed

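Small RNA libraries of 15 to 35 nt inserts were made with the NEBNext kit, per the labels' protocols. The values are raw read counts per mature miRNA, deposited by the authors in 1 table per library. The submitters' processing notes name cutadapt, Bowtie and edgeR without versions, and the build hg38, although the samples are mouse, and the sources used here do not say how reads were mapped to it. The tables give no strand or coordinates, and the hairpin coordinates printed are from RefSeq on GRCm38.p6. The genes and exons that overlap the hairpins are from GENCODE vM21.

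Each count was moved to the name 1 row above. Of rows sharing a name (76 of 683 names), the one with the highest total was kept; each member had 1 row. Main tests used edgeR 4.0.16 in R 4.3.3: TMM scaling, filterByExpr, and a robust quasi-likelihood fit of 3 groups over 15 libraries, with Benjamini-Hochberg adjustment over 652 miRNAs. The SE was derived from the F statistic. Cluster sums were correlated on a log2 scale with SciPy 1.17.1. The fit was also run on counts simulated from its own estimates of the spread. That simulation held no libraries that stand apart, and its outcome is not given here.

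Alternatives were DESeq2 1.42.0, limma-voom 3.58.1, other scaling factors, no filter on low counts, summed repeated names, names as printed, a fit of only the 2 groups compared, the replicate block, leaving out libraries and, added after the data were seen, total count scaling. The genes named were the 9 members, their other arms (0 of 7 analysed here), marker lists, and the 5 miRNAs most like each cluster sum. Of these 5 the text names the first 3 per cluster, and miR-125a-3p for the miR-183 cluster. Members and lists were chosen with earlier results of these data known.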

Additional observations from a re-analysis of the deposited data

Results flagged for a closer look

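In 27 sets of 5 libraries (9 members in 3 groups), 2 held a library far from the other 4, where chance alone gives about 1 in 20. That rate holds for independent sets of normally spread values. The sets here share libraries and their CPM were not log-transformed, so the rate is a rough guide and no conclusion is drawn from the count. Both came from the miR-200c cluster and from BYHWD replicate 4. The level of miR-200c-3p there was 22.3 CPM, and its gap to the nearest BYHWD library was 0.721 of the group's range. The level of miR-141-3p there was 7.22 CPM, with a gap of 0.778 of the range. The limit for 5 libraries is 0.71.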

How the results depend on the processing

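No member was called in any comparison under any alternative that kept the moved names. The lowest adjusted p was 0.113 for miR-141-3p in ICH against sham without BYHWD replicate 4, 0.780 in BYHWD against ICH, and 0.213 for miR-200a-3p in BYHWD against sham with total count scaling, an alternative chosen after the data were seen. With names as printed, 1 member was called, in BYHWD against sham: the counts printed beside miR-200a-3p gave 1.08 on the log2 scale (edgeR adjusted p = 0.0423). Directions were less stable, and the cause of each change was not tested. Changes of sign, given as log2 fold changes, were as follows.

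In ICH against sham, limma-voom with sample weights gave 0.30 for miR-200a-5p, 0.022 for miR-200b-3p and 0.10 for miR-182-5p. Total count scaling gave 0.069 for miR-200a-5p and 0.029 for miR-182-5p. Names as printed gave 0.26 for miR-200b-3p and -0.36 for miR-96-5p. Without sham replicates 4 and 5 the values were 0.34 for miR-200a-5p, 0.61 for miR-200b-3p, 0.61 for miR-183-5p and 0.56 for miR-182-5p. In BYHWD against ICH, names as printed gave -0.021 for miR-200a-3p, 0.34 for miR-141-3p, -0.058 for miR-429-3p, -0.048 for miR-183-5p, -0.063 for miR-96-5p and -0.017 for miR-182-5p. In BYHWD against sham, DESeq2 gave -0.0091 for miR-200a-5p, and limma-voom gave 0.17 for miR-200b-3p, 0.15 for miR-183-5p and 0.32 for miR-182-5p. Total count scaling gave 0.27 for miR-182-5p. Names as printed gave -0.042 for miR-200a-5p, 0.76 for miR-200b-3p, -0.028 for miR-200c-3p and -0.42 for miR-96-5p. Without sham replicates 4 and 5 the values were 0.80 for miR-200b-3p, 0.97 for miR-183-5p and 0.80 for miR-182-5p.

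Leaving out each library in turn changed the sign of 4 members in ICH against sham: miR-200a-5p (-0.42 to 0.19), miR-429-3p (-0.074 to 0.60), miR-96-5p (-0.076 to 0.46) and miR-182-5p (-0.52 to 0.21). In BYHWD against ICH it did so for miR-200a-3p (-0.20 to 0.54), miR-200a-5p (-0.27 to 0.42), miR-200b-3p (-0.18 to 0.38), miR-141-3p (-0.86 to 0.075), miR-183-5p (-0.00011 to 0.58), miR-96-5p (-0.12 to 0.35) and miR-182-5p (-0.12 to 0.42). In BYHWD against sham it did so for miR-200a-5p (-0.41 to 0.35), miR-200b-3p (-1.02 to 0.13), miR-200c-3p (-0.49 to 0.73), miR-183-5p (-0.87 to 0.22) and miR-182-5p (-0.40 to 0.41).

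Replicate numbers did not pair the libraries: same-numbered libraries deviated with correlations of -0.43 to 0.22 (median -0.12), and 2 of 15 libraries correlated best with their own number. The fit with the replicate block called 0 members in each comparison, and gave 0.00012 for miR-200a-5p in ICH against sham and -0.061 for miR-200b-3p in BYHWD against ICH. The number of all miRNAs called, 5 in ICH against sham and 15 in BYHWD against sham, ranged over the alternatives from 4 to 48 (DESeq2) and from 2 (without sham replicate 4) to 54 (without sham replicate 3); in BYHWD against ICH it was 0 throughout. The lowest counts were those of miR-200a-5p, from 6 per library, and miR-141-3p, from 7.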
